A study of Mus musculus with 2 samples.

Results

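The genes that carry out the main steps of iron handling, 8 of the 30084 genes in the transcript table, were followed across macrophage states, fibroblasts and endothelial cells of mouse visceral fat. They were listed by name and not by their values: the ferritin genes Fth1 and Ftl1, the exporter Slc40a1 and the ferroxidase Cp, the uptake genes Tfrc, Slc11a2 and Trf, and the phagosomal transporter Slc11a1. All 8 were present in the table. The cells were the stromal vascular fraction of epididymal fat, that is, the cells other than adipocytes that digestion sets free. They came from male C57BL/6J mice, Mincle-deficient (Mincle KO) and wild-type (WT), all fed high-fat chow for 15 weeks, and no lean control is analysed here. Mincle, encoded by Clec4e, is a lectin receptor of myeloid cells, and the labels give neither the allele nor the number of mice. Suspensions were marked with a hashtag antibody each, pooled and captured together on a microwell system (BD Rhapsody) with TAS-Seq amplification, giving 1 transcript library and 1 hashtag library. Which hashtag stands for which genotype or animal is not given in the labels, so Mincle KO and WT cells were not compared, a pooled level averages both genotypes in unknown proportion, and the genotype behind a level of a single hashtag is unknown.

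Iron enters most cells as transferrin bound to the transferrin receptor (Tfrc) and is carried out of endosomes by the divalent metal transporter DMT1 (Slc11a2). Inside the cell it is stored in ferritin, a shell built of heavy (Fth1) and light (Ftl1) chains, and it leaves through ferroportin (Slc40a1), helped by ferroxidases such as ceruloplasmin (Cp). Macrophages also take in iron with dead cells and return it to the circulation, and Slc11a1 (NRAMP1) moves metal out of their phagosomes. Transferrin itself (Trf) is made mainly by the liver, but its transcript is found in many other cells. Iron regulatory proteins bind hairpins in some of these messages when iron is scarce, blocking translation from a 5′ UTR and protecting the message from decay in a 3′ UTR.

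The hairpins are shown because that control acts on translation for the ferritins and ferroportin and so need not appear in a transcript count. The GENCODE vM21 transcripts (GRCm38) were searched for the loop CAGTGN, flanked on each side by 5 bases that pair across it. A C had to stand just before the 5 bases on the 5′ side. This search found matches in the UTRs of 4 of the 8 genes. In each 29-base stretch the loop is in capitals, and the strand is that of the gene.
Fth1, 5′ UTR, chr19:9982732-9982760, plus strand: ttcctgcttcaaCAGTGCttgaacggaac
Ftl1, 5′ UTR, chr7:45459779-45459807, minus strand: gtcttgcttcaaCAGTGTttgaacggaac
Slc40a1, 5′ UTR, chr1:45925465-45925493, minus strand: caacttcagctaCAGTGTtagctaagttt
Tfrc, 3′ UTR, chr16:32631219-32631247, plus strand: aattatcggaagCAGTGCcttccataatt
Tfrc, 3′ UTR, chr16:32631598-32631626, plus strand: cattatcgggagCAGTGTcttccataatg
Tfrc, 3′ UTR, chr16:32631663-32631691, plus strand: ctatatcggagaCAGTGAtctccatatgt
Tfrc, 3′ UTR, chr16:32631710-32631738, plus strand: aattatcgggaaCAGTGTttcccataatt
The same search matched a 5′ UTR in 31 of 21842 protein-coding genes (0.142%) and a 3′ UTR in 129 (0.591%). The hairpin was present in 4 of 5 coding transcripts of Fth1, in 1 of 2 of Ftl1, in 1 of 4 of Slc40a1 and in 1 of 3 of Tfrc. For Slc11a2, Trf, Slc11a1 and Cp the search found no match, which says only that these letters are not in their annotated UTRs. An isoform of Slc11a2 is known for a hairpin of this family in its 3′ UTR that this pattern does not find. A match is a description of the sequence, and these counts do not tell which transcript of a gene was read.

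Of 15741 cells, 15192 were used, with a median of 34641.5 counts (range 6596 to 473807). The 4 hashtags, A0309 to A0312, marked 3255, 3475, 3857 and 4605 of them, with medians of 33483 to 35489 counts. They are parts of 1 pool and not replicates of a condition, so their spread is given as a description, no test was made, and intervals cover counting error only. Clec4e itself had 8.33, 14.3, 0.665 and 0.555 CPM (counts of the gene per 1000000 counts of the group) in the macrophage-like cells of A0309, A0310, A0311 and A0312. No genotype was read from these values. Cells were clustered without any iron gene and named from marker genes, which gave 7931 macrophage-like, 3451 fibroblast-like and 777 endothelial-like cells. Macrophage markers summed to 9468 CPM in macrophage-like cells, 115 CPM in fibroblast-like and 201 CPM in endothelial-like cells, and all 9 of them were counted in each, though low values of Cd68, C1qa and C1qc had been set to 0 before deposit. Fibroblast markers summed to 59.7 CPM in macrophage-like cells and 46536 CPM in fibroblast-like cells. Clusters and sub-clusters led by markers of a second lineage were left out as mixed, among them 66 cells from the macrophage, 498 from the fibroblast and 225 from the endothelial side. Where mixed sub-clusters are said to be kept, these cells of the macrophage, fibroblast and endothelial sides were added back. They include whole mixed clusters of 363 cells on the fibroblast side and 144 on the endothelial side. A further 480 cells, in mixed clusters of endothelial and mural markers, were left out of every class and were not added back. The hashtags were unevenly placed: A0310 held 148 of the 208 cells of a single lipid-associated sub-cluster, and the leading values of the lipid-associated-like state are given with and without it. Macrophage-like and fibroblast-like cells had medians of 41762 and 35285 counts, and endothelial-like cells were shallower, with 12726.

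A gene was called higher or lower where the log2 ratio of CPM + 1 was at least 1 in size, with 1 sign, over the pool and within each hashtag holding 20 or more cells of both groups. Genes below 5 CPM in both groups were not called. Macrophage-like cells stood above fibroblast-like cells in 4 of the 8 genes (Ftl1, Tfrc, Trf and Slc11a1) and below them in 1, Cp. Over all genes past the filter 33.3% were called in this comparison, 14.2% higher and 19.1% lower, so a share of 4 in 8 higher is above that of all genes, and a share of 1 in 8 lower is not. Against endothelial-like cells, 6 of the 8 were called higher (Fth1, Ftl1, Slc40a1, Tfrc, Trf and Slc11a1) and none lower, where 29.5% of all genes were called, 9.92% higher and 19.6% lower. Fibroblast-like cells were called higher than endothelial-like cells in 4 genes, Fth1, Ftl1, Cp and Trf, of the 6 past the filter, where 23.8% of all genes were called and 10.9% were higher. The median log2 ratio of the 8 genes was 1.25 for macrophage-like over fibroblast-like cells and 2.46 for macrophage-like over endothelial-like cells, against −0.03 and −0.34 for all genes. The transcripts from macrophage-like cells made up 62.1% of all counts, 85.1% of those of Ftl1, 86.2% of Slc11a1 and 84.7% of Tfrc, but only 8.02% of Cp, whose counts came to 78.3% from fibroblast-like cells.

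**Figure D1:**
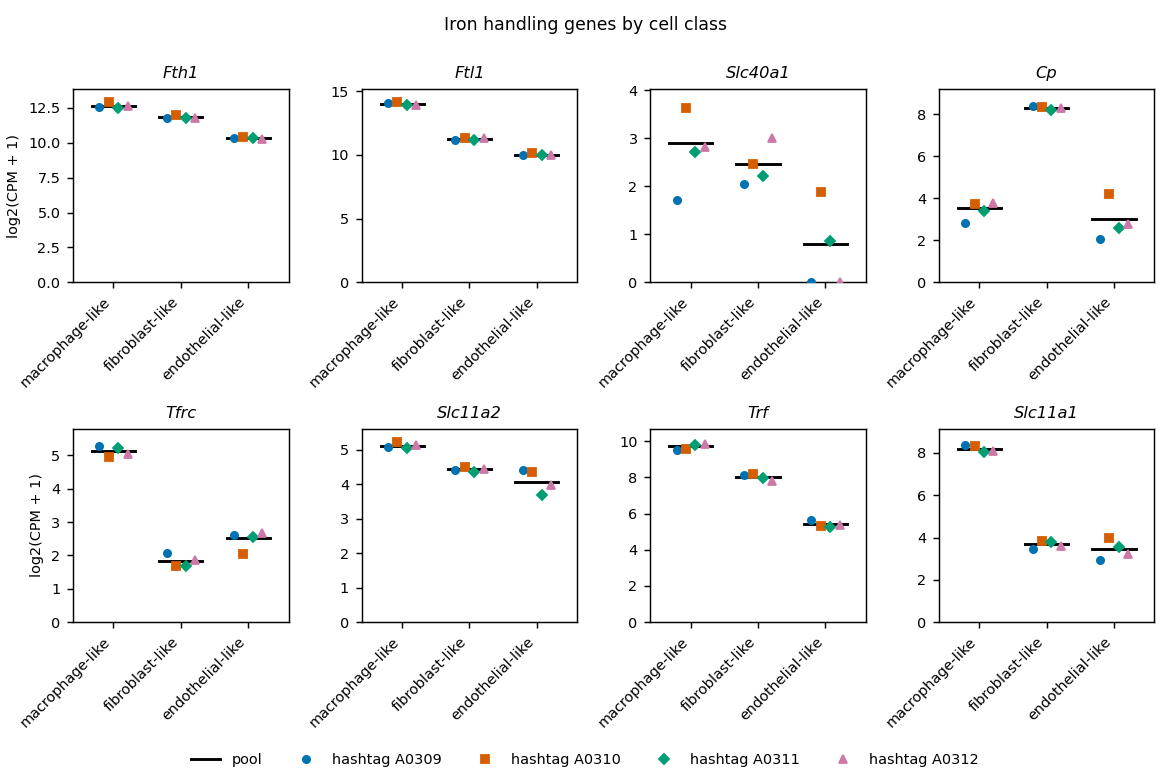
Level of each iron handling gene in macrophage-like, fibroblast-like and endothelial-like cells as log2(CPM + 1), with the pool as a line and each hashtag as a point. Ftl1, Tfrc and Slc11a1 stand clear of both other classes in macrophage-like cells, Cp stands clear in fibroblast-like cells, and the widest spreads over hashtags are those of Cp in endothelial-like cells (2.16 on the log2 axis) and of Slc40a1 in macrophage-like (1.91) and endothelial-like cells (1.88).

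Both storage genes were highest in macrophages. Fth1 (GRCm38 chromosome 19, 9980598 to 9985098, plus strand), the heavy chain with ferroxidase activity, had 6142, 7924, 5760 and 6328 CPM in macrophage-like cells of A0309, A0310, A0311 and A0312. In fibroblast-like cells it had 3512, 4004, 3496 and 3600 CPM, and in endothelial-like cells 1287, 1361, 1307 and 1244 CPM. No hashtag of any of these classes overlapped the range of another, but the difference between macrophage-like and fibroblast-like cells (log2 ratio 0.83) did not reach the size required for a call. Both exceeded endothelial-like cells, with log2 ratios of 2.33 and 1.503. Both of these calls were lost when the mixed sub-clusters were kept, with ratios of 1.08 and 0.35.

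Ftl1 (chromosome 7, 45457944 to 45459884, minus strand), the light chain, which has no ferroxidase site and aids the laying down of the iron core, differed more. It had 16728, 17656, 14985 and 15543 CPM in macrophage-like cells of A0309 to A0312, 2241, 2588, 2288 and 2509 CPM in fibroblast-like cells, and 988, 1103, 1003 and 1039 CPM in endothelial-like cells. Each class lay wholly apart from the others in all hashtags. The log2 ratio was 2.74 for macrophage-like over fibroblast-like cells (2.63 to 2.90 over hashtags) and 3.96 over endothelial-like cells. Ftl1 values below 28 had been set to 0 before deposit, which lowers the level most where cells are shallow or poor in the gene: Ftl1 stood at 0 in 0.454% of macrophage-like, 8.06% of fibroblast-like and 65.9% of endothelial-like cells. The ratios of Ftl1 to endothelial-like cells are therefore larger than unaltered counts would give. With the mixed sub-clusters of these classes kept, the Ftl1 ratio of fibroblast-like over endothelial-like cells was −0.66 in place of 1.23, and that of macrophage-like over endothelial-like cells was 1.49.

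The balance of the chains differed by lineage. The ratio of Fth1 to Ftl1 counts, which is not corrected for length and serves only to compare groups, was 0.367, 0.449, 0.384 and 0.407 in macrophage-like cells of A0309 to A0312. It was 1.57, 1.55, 1.53 and 1.43 in fibroblast-like cells and 1.30, 1.23, 1.30 and 1.20 in endothelial-like cells, where the zeroed values of Ftl1 raise it. The macrophage range did not overlap those of the other classes. Ftl1-ps1, named as a copy of Ftl1 but annotated as protein-coding, has a row that shows no such zeroing and may take reads of Ftl1. Against that row, Fth1 stood at 9.29 in macrophage-like, 32.9 in fibroblast-like and 17.7 in endothelial-like cells, the same order of macrophage-like below both. The row itself had 701 CPM in macrophage-like, 112 CPM in fibroblast-like and 72.9 CPM in endothelial-like cells. Whether the Ftl1 call of fibroblast-like over endothelial-like cells would stand in counts without zeroing was not tested. Within fibroblasts the ratio of Fth1 to Ftl1 was 2.30 in F3-positive-like cells, 1.88 in Dpp4-progenitor-like, 1.48 in inflammatory-like and 1.26 in preadipocyte-like cells. It was 0.474 in monocyte-like cells, and within macrophages 0.435 in lipid-associated-like, 0.436 in resident-like, 0.501 in MHC class II high-like and 0.318 in cycling cells.

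**Figure D2:**
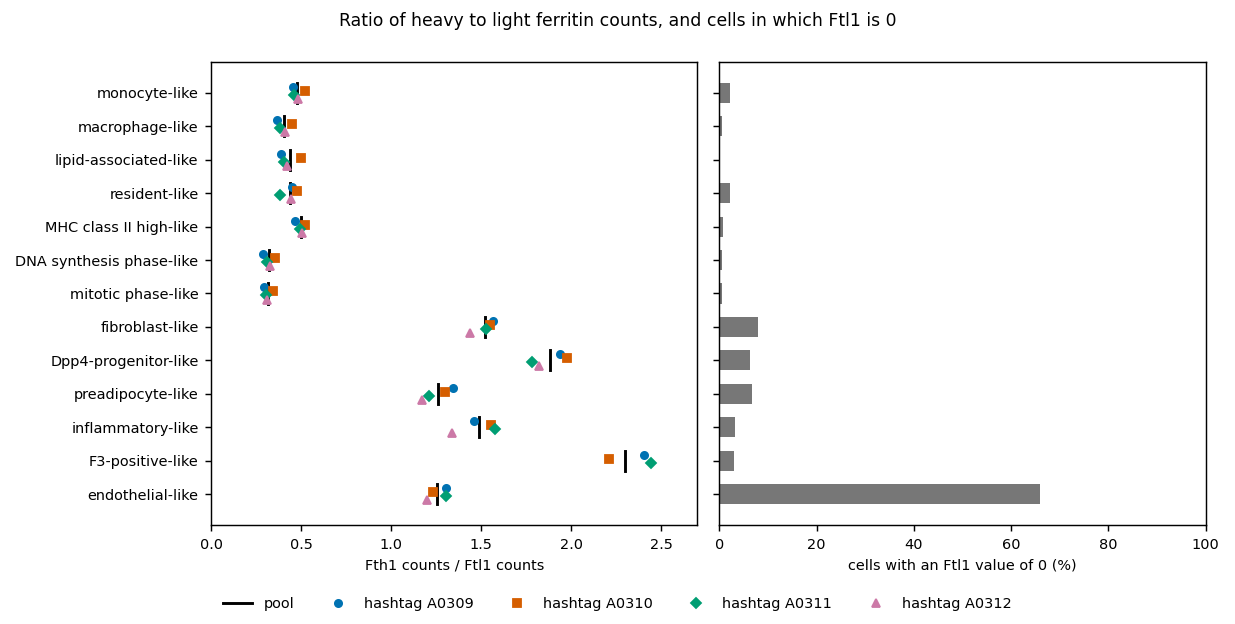
Left, ratio of Fth1 to Ftl1 counts in each group, pool as a bar and hashtags as points; right, percent of cells with an Ftl1 value of 0. Every macrophage and monocyte group drawn lies below every fibroblast group, and endothelial-like cells are the only group drawn with most cells at 0 for Ftl1.

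The export genes had unlike patterns over the classes. Slc40a1 (chromosome 1, 45908068 to 45926523, minus strand) encodes ferroportin, the only known iron exporter of mammals, and was counted in few cells. It had 2.26, 11.3, 5.53 and 6.03 CPM in macrophage-like cells of A0309 to A0312. It had 3.15, 4.52, 3.62 and 6.98 CPM in fibroblast-like cells, so the classes overlapped and no difference was called (log2 ratio 0.44). In endothelial-like cells it had 0, 2.69, 0.819 and 0 CPM, from 9 counts in 5 of 777 cells. Macrophage-like over endothelial-like cells gave a log2 ratio of 2.10 (1.71 to 2.81), and this call is lost without hashtag A0310 (2.21), with the mixed sub-clusters kept (1.14) and with a pseudocount of 5 CPM (1.00). After thinning every cell to 10000 counts, 3.49% of macrophage-like, 3.26% of fibroblast-like and 0.370% of endothelial-like cells had a count of Slc40a1. The counts were held by few cells: 523 of 7931 macrophage-like cells had any, and the 79 cells with the most held 52.2% of them.

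Cp (chromosome 3, 19957054 to 20009145, plus strand), the copper ferroxidase that oxidises iron as ferroportin releases it, had 6.09, 12.3, 9.53 and 12.8 CPM in macrophage-like cells of A0309 to A0312. It had 331, 326, 297 and 314.03 CPM in fibroblast-like cells and 3.14, 17.5, 4.91 and 5.88 CPM in endothelial-like cells. Fibroblast-like cells lay far above both other classes in every hashtag, and those 2 overlapped. The log2 ratio was −4.77 for macrophage-like over fibroblast-like cells (−5.55 to −4.51) and 5.29 for fibroblast-like over endothelial-like cells. A count of Cp was found in 7.34% of macrophage-like, 74.6% of fibroblast-like and 4.07% of endothelial-like cells after thinning.

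Of the uptake genes, Tfrc and Trf were called higher in macrophage-like cells than in both other classes, and Slc11a2 in neither comparison. Tfrc (chromosome 16, 32608920 to 32632794, plus strand), the transferrin receptor, had 38.0, 29.7, 36.4 and 31.9 CPM in macrophage-like cells of A0309 to A0312. It had 3.21, 2.21, 2.22 and 2.64 CPM in fibroblast-like cells and 5.11, 3.14, 4.91 and 5.37 CPM in endothelial-like cells. Macrophage-like cells stood apart in every hashtag (log2 ratios 3.28 and 2.58), whereas the other classes overlapped (log2 ratio −0.70 for fibroblast-like over endothelial-like cells, both near or below 5 CPM). With the mixed sub-clusters kept, Tfrc was not called for macrophage-like over endothelial-like cells (1.058) and was called lower for fibroblast-like over endothelial-like cells (−1.52). T cell-like cells, with 58.7 CPM, lay above macrophage-like cells in every hashtag, and NK cell-like cells, with 46.7 CPM, overlapped both. Macrophage markers in T cell-like cells summed to 42.3% of their level in macrophage-like cells, and their part in that value was not tested.

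Slc11a2 (chromosome 15, 100387898 to 100425072, minus strand), which carries endosomal iron into the cytosol, varied little. It had 32.8, 35.9, 32.1 and 33.8 CPM in macrophage-like cells of A0309 to A0312, 20.3, 21.6, 19.5 and 20.7 CPM in fibroblast-like cells, and 20.05, 19.3, 11.7 and 14.6 CPM in endothelial-like cells. The macrophage values exceeded those of both other classes, but with log2 ratios of 0.68 and 1.05 (0.68 to 1.38 over hashtags) neither difference was called. Fibroblast-like and endothelial-like cells overlapped. NK cell-like cells had the highest level of the 8 classes, 38.1 CPM, with a range over hashtags (26.6 to 59.7 CPM) that held that of macrophage-like cells.

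Trf (chromosome 9, 103204001 to 103230444, minus strand), transferrin, was counted in most macrophages. It had 726, 765, 874 and 920 CPM in macrophage-like cells of A0309 to A0312, 277, 292, 247 and 219 CPM in fibroblast-like cells, and 49.9, 39.0, 37.9 and 39.6 CPM in endothelial-like cells. The 3 classes did not overlap, and the log2 ratios were 1.68, 4.32 and 2.64 for macrophage-like over fibroblast-like, macrophage-like over endothelial-like and fibroblast-like over endothelial-like cells. With the mixed sub-clusters kept, the second was 1.38 and the last −0.0018. With hashtags assigned by tag counts the first was not called, at a ratio of 1.98. After thinning, 93.9% of macrophage-like, 45.6% of fibroblast-like and 22.6% of endothelial-like cells had a count.

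Slc11a1 (chromosome 1, 74375195 to 74386062, plus strand), a myeloid transporter of late endosomes and phagosomes known in mice for resistance to intracellular microbes, had the largest ratios of macrophage-like over other cells among the 8. It had 326, 322, 266 and 272 CPM in macrophage-like cells of A0309 to A0312, 10.1, 13.1, 12.7 and 11.1 CPM in fibroblast-like cells, and 6.68, 14.8, 10.6 and 8.43 CPM in endothelial-like cells. Fibroblast-like and endothelial-like cells overlapped (log2 ratio 0.24), and macrophage-like cells exceeded them by log2 ratios of 4.51 and 4.75. Slc11a1 stood at 4.06% of its macrophage level in fibroblast-like cells and at 3.39% in endothelial-like cells. Over the 9 macrophage markers, 3 of which had low values zeroed, the same percentage had a median of 1.96% in fibroblast-like cells (0.396 to 3.22%) and 3.50% in endothelial-like cells (0.624 to 6.00%). Slc11a1 thus lay above every macrophage marker in fibroblast-like cells and at the level of the median marker in endothelial-like cells, and the part of macrophage RNA in these low values was not tested.

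Monocyte-like cells (785 cells), which carry markers of blood monocytes, were near macrophage-like cells in several of these genes. None of the 8 was called against macrophage-like cells, where 5.02% of all genes were, 2.6% higher and 2.42% lower. They had 4797 CPM of Fth1, 10121 CPM of Ftl1, 488 CPM of Trf and 270 CPM of Slc11a1, against 6510, 16087, 838 and 291 CPM in macrophage-like cells. The low-abundance members were Slc40a1 at 1.20 CPM and Tfrc at 16.3 CPM, against 6.43 and 33.7 CPM in macrophage-like cells. Trf, at −0.78 in log2 ratio, passed to a lower call in monocyte-like cells under 4 alternatives: hashtags assigned by tag counts (−1.67), tag-count multiplets left out (−1.67), and clustering at Leiden resolution 0.5 (−1.502) or 2 (−1.21). Slc40a1 was called lower without hashtag A0309 (−2.05) and at resolution 2 (−1.98), and Tfrc without hashtag A0309 (−1.24) and as a mean over cells (−1.19).

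Macrophage states were set apart by markers other than iron genes: 1286 lipid-associated-like, 182 resident-like, 2169 MHC class II high-like and 1463 cycling cells, of which 1113 were in DNA synthesis and 350 in mitosis by their markers. A further 51 cells were interferon-response-like, and 2780 cells met no state. Lipid-associated macrophages are known from obese fat, where they take up lipid around dying adipocytes, while resident macrophages carry Lyve1 and scavenger receptors. The states differed in depth, with medians of 67885.5 counts per cell in lipid-associated-like, 19530.5 in resident-like, 26207 in MHC class II high-like and 60355 in cycling cells, so that a CPM is a share of very different totals.

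Tfrc and Cp were high in the resident-like state. Tfrc had 21.7, 24.7, 27.9 and 22.7 CPM in lipid-associated-like cells of A0309 to A0312, against 249, 138, 112 and 57.3 CPM in resident-like cells. Every hashtag of lipid-associated-like cells lay below every hashtag of resident-like cells, but the resident-like values spread widely, with 36 to 63 cells a hashtag. Cp had 2.08, 2.44, 2.98 and 3.50 CPM in lipid-associated-like cells, against 43.6, 187, 87.6 and 113 CPM in resident-like cells, again with no overlap. For lipid-associated-like over resident-like cells the log2 ratios were −2.59 for Tfrc and −4.65 for Cp. Both were called lower, and no other member was called, where 8.8% of all genes were called and 5.59% lower. With hashtags assigned by tag counts Tfrc was not called, at a ratio of −2.58.

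Set against all other macrophage-like cells, resident-like cells were called higher in Cp only, with 95.7 against 9.75 CPM and a log2 ratio of 3.17 (2.83 to 3.99), where 5.33% of all genes were called, 2.78% higher and 2.56% lower. Tfrc had 151 against 32.4 CPM (log2 ratio 2.19) and was not called because hashtag A0312 gave 0.83. Tfrc was called as well without A0312 (2.43) and at Leiden resolutions 0.5 (2.20) and 2 (1.72). Slc40a1 had 2.08, 17.9, 36.7 and 35.2 CPM in resident-like cells of A0309 to A0312, from 87 counts in 26 cells, and its ratio spread between −0.09 and 2.60. Leaving out the single cell with the most counts of each gene, resident-like cells had 84.7 CPM of Cp, 134 CPM of Tfrc and 16.98 CPM of Slc40a1. The other members lay at 5168 CPM for Fth1, 11852 CPM for Ftl1, 1103 CPM for Trf, 21.2 CPM for Slc11a2 and 190 CPM for Slc11a1.

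Cp is a fibroblast-rich transcript, so the fibroblast markers are given beside it. Dcn was at 0 in resident-like cells, and Dcn and Col3a1 were at 0 in MHC class II high-like cells, but low values of both had been zeroed before deposit, so the 3 markers without such zeroing, Pdgfra, Col1a1 and Col1a2, are the ones to read. They summed to 44.7 CPM in lipid-associated-like, 98.4 CPM in resident-like and 77.9 CPM in MHC class II high-like cells, against 9750 CPM in fibroblast-like cells. That is 0.459%, 1.01% and 0.799% of the fibroblast level, whereas Cp stood at 0.898%, 30.1% and 11.6% of its own fibroblast level in those states. In the 64 of 182 resident-like cells with no count of any fibroblast marker Cp had 66.0 CPM, and in the other resident-like cells 107 CPM. In the 616 of 2169 MHC class II high-like cells with none it had 42.3 CPM, and in the others 35.1 CPM. With only cells that had no such count kept, in a comparison added after the data were seen, the log2 ratio of Cp was 2.003 for resident-like over other macrophage-like cells and −3.68 for lipid-associated-like over resident-like cells, and that of Tfrc was 2.02 and −2.30. The 4 hashtags then held 14 to 17 resident-like cells, too few for the rule, so no call could be made in either direction.

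MHC class II high-like cells, the state rich in antigen-presentation genes, held the most of the exporter's counts. Slc40a1 had 8.77, 27.7, 16.95 and 17.4 CPM there in A0309 to A0312, and 18.3 against 4.18 CPM in other macrophage-like cells over the pool (log2 ratio 1.90, 1.6002 to 2.09). Cp had 19.5, 46.3, 32.9 and 40.1 CPM, and 36.8 against 5.71 CPM over the pool (2.49). Trf had 1602, 1411, 1595 and 1579 CPM, and 1551 against 704 CPM over the pool (1.14, 1.03 to 1.39). All 3 were called higher, a share of 3 in 8, where 3.47% of all genes were called higher and 7.38% in either direction. This state made up 27.3% of the macrophage-like cells and held 45.3% of their Slc40a1 counts and 54.9% of their Cp counts. Both of its sub-clusters were high, with 16.0 and 22.7 CPM of Slc40a1. A0309 was the lowest hashtag for Slc40a1 and Cp in this state. Trf lay close to the limit of 1, and its call was lost under most of the alternatives that redraw or rescale the cells. With hashtags assigned by tag counts, or with the multiplets of those counts left out, only Cp was called; with the first rule Slc40a1 was at 1.498 and Trf at 0.94, and with the second they were at 1.595 and 1.10 in log2 ratio.

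Lipid-associated-like cells had the highest pooled ferritin levels of the named macrophage states. Fth1 had 7400, 10902, 7234 and 7966 CPM in A0309 to A0312 and Ftl1 had 18973, 21870, 18001 and 18944 CPM. Against all other macrophage-like cells, with 5872 CPM of Fth1 and 14981 CPM of Ftl1, the log2 ratios were 0.53 and 0.38 and neither was called. Slc11a2 at 40.8 CPM and Slc11a1 at 350 CPM were also highest in this state among those named, likewise without a call. Without the sub-cluster of 208 cells the state had 7653 CPM of Fth1, 18794 CPM of Ftl1, 39.7 CPM of Slc11a2 and 326 CPM of Slc11a1. Each was still above every other named state, of which the interferon-response-like cells came nearest for Fth1 (6501 CPM), Slc11a2 (37.04 CPM) and Slc11a1 (259.7 CPM) and the mitotic cells for Ftl1 (15873 CPM). The 2780 cells of no state are outside this ranking. As a percent of the fibroblast-like level, their sub-cluster led by Dnmt3aos had 3204% of Slc11a1, against 2962% in lipid-associated-like cells. Their sub-cluster led by Pgm5 had 201% of Slc11a2, against 198%. For Fth1 and Ftl1 none of their sub-clusters lay above the lipid-associated-like state with its 208 cells included. Cp was the single member called, lower at 2.85 against 13.2 CPM (log2 ratio −1.88), where 4.15% of all genes were called and 3.62% lower. This call was lost at Leiden resolution 2 (−1.43) and with a pseudocount of 5 CPM (−1.21). The Cp level of the other cells was uneven: 36.8 CPM in MHC class II high-like, 95.7 CPM in resident-like, 4.51 CPM in cycling cells and 5.78 CPM in cells of no state.

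**Figure D3:**
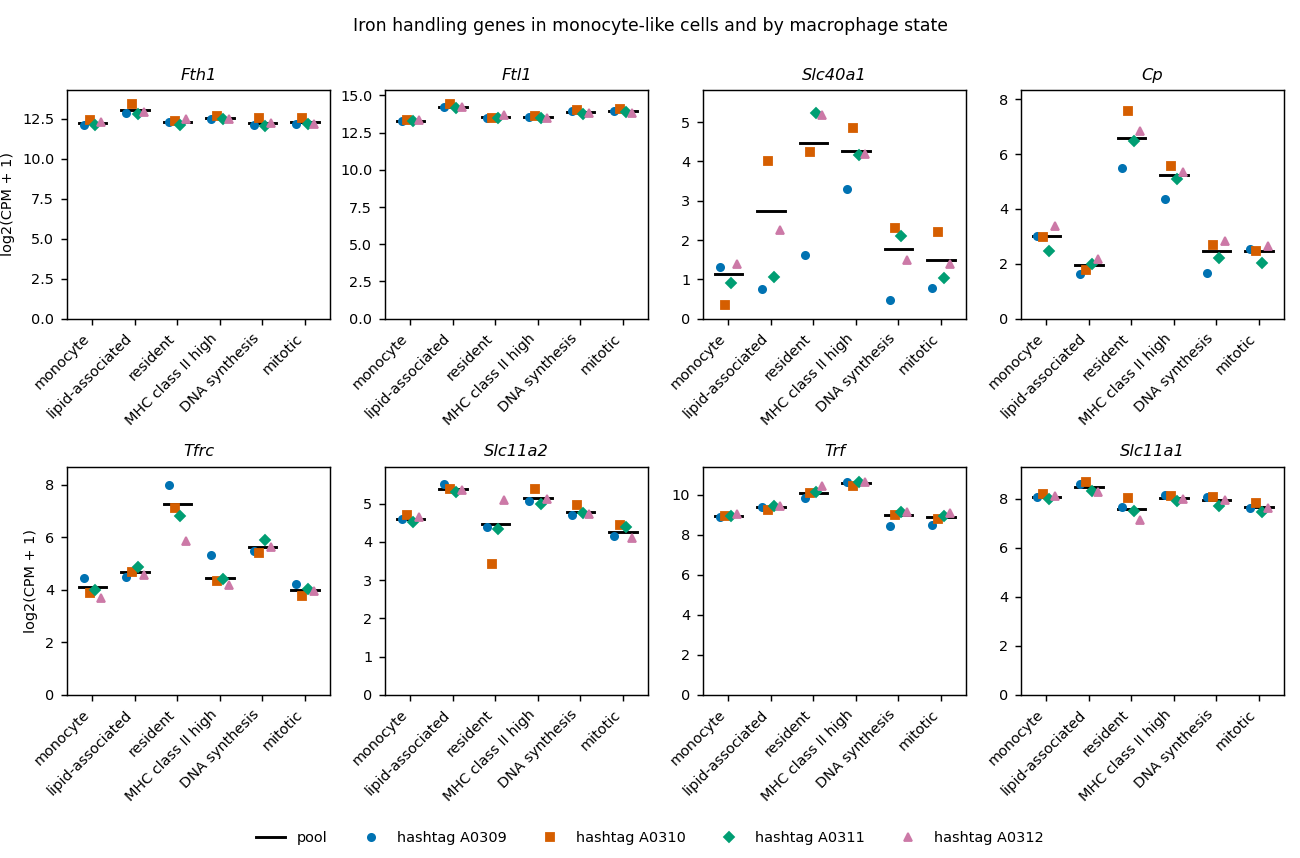
Level of each iron handling gene in monocyte-like cells and macrophage states as log2(CPM + 1), pool as a line and hashtags as points, drawn where a hashtag had 20 or more cells. Tfrc and Cp are highest in resident-like cells, Slc40a1 is high in resident-like and MHC class II high-like cells with A0309 lowest in both, and Fth1 and Ftl1 are highest in lipid-associated-like cells.

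The lipid-associated-like state was not uniform in its iron genes. A sub-cluster of 208 cells led by Serpinb9b, Uchl1 and Cd5l had 13764 CPM of Fth1, 24072 CPM of Ftl1, 501 CPM of Slc11a1 and 48.0 CPM of Slc11a2, each the highest of the 13 macrophage sub-clusters. Hmox1, which frees iron from haem, was also high there, at 791 CPM, against 236 CPM over all macrophage-like cells. Its Slc40a1 level was 33.2 CPM, but a single cell of A0310 held 202 of the 438 counts, and the level without that cell was 18.02 CPM. This sub-cluster made up 8.55% of the macrophage-like cells of A0310 (exact binomial interval 7.27 to 9.96%), and 0.600%, 0.699% and 1.36% of those of A0309, A0311 and A0312. It held 2.62% of all macrophage-like cells but 17.2% of their Slc40a1 counts and 7.06% of their Fth1 counts. In the 2 hashtags with 20 or more of its cells, Fth1 stood at 14030 CPM in A0310 and 13540 CPM in A0312, and Slc40a1 at 35.9 and 31.9 CPM.

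Another lipid-associated sub-cluster, 433 cells led by Dcstamp and Arg1, did not share the high ferritin levels: it had 5599 CPM of Fth1 and 15858 CPM of Ftl1, against 6510 and 16087 CPM over all macrophage-like cells. It had 408 CPM of Slc11a1 and 0.238 CPM of Slc40a1, which had 7 counts there. The remaining 645 cells had 8776 CPM of Fth1, 20401 CPM of Ftl1 and 281 CPM of Slc11a1. Without the Serpinb9b sub-cluster, a choice made after the data were seen, Slc40a1 was called lower in lipid-associated-like than in other macrophage-like cells (log2 ratio −1.72), where it had been at −0.20. Slc40a1 had 0.674, 15.2, 1.08 and 3.81 CPM in the lipid-associated-like cells of A0309 to A0312, highest in the hashtag that held most of that sub-cluster. Over the 11 macrophage sub-clusters with 20 or more cells in all hashtags, A0310 was the highest hashtag in 10 for Fth1 and in 7 for Slc40a1, and A0309 was the lowest in 9 for Slc40a1. A0311 was the lowest for Fth1 in 10 of the 11.

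Cycling cells held more of the receptor in DNA synthesis than in mitosis. Tfrc had 43.1, 41.1, 58.2 and 47.9 CPM in the DNA synthesis phase in A0309 to A0312, against 17.7, 12.7, 15.3 and 14.3 CPM in the mitotic phase, with no overlap. The sub-cluster led by Uhrf1, Rrm2 and Ung, genes of the start of S phase, had 62.7 CPM and the sub-cluster led by histone genes 35.3 CPM. Among sub-clusters in no cycling state, the one led by Dnmt3aos and Smpd3 reached 50.4 CPM. Over all cycling cells Tfrc had 41.1 against 31.2 CPM in other macrophage-like cells and was not called. Trf (501 against 948 CPM, log2 ratio −0.92), Fth1, Ftl1, Slc11a2 and Slc11a1 were not called either. Cp was called lower in cycling cells, with 4.51 against 12.7 CPM (log2 ratio −1.31), where 5.61% of all genes were called, 5.15% higher and 0.458% lower. MHC class II high-like and resident-like cells held 54.9% and 9.43% of the macrophage Cp counts. Cycling cells lay near the cells of no state (5.78 CPM) and above lipid-associated-like cells (2.85 CPM). The Cp call was lost with tag-count multiplets left out (−1.13) and with a pseudocount of 5 CPM (−0.89). Slc40a1 had 2.27 against 7.78 CPM (−1.42), with 3.95 CPM in cells of no state. Slc40a1 was not called, since hashtag A0311 gave −0.93. It was called lower without A0311 (−1.61), at Leiden resolution 2 (−1.44), as a mean over cells (−1.58) and without cells holding a count of a fibroblast marker (−2.36).

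**Figure D4:**
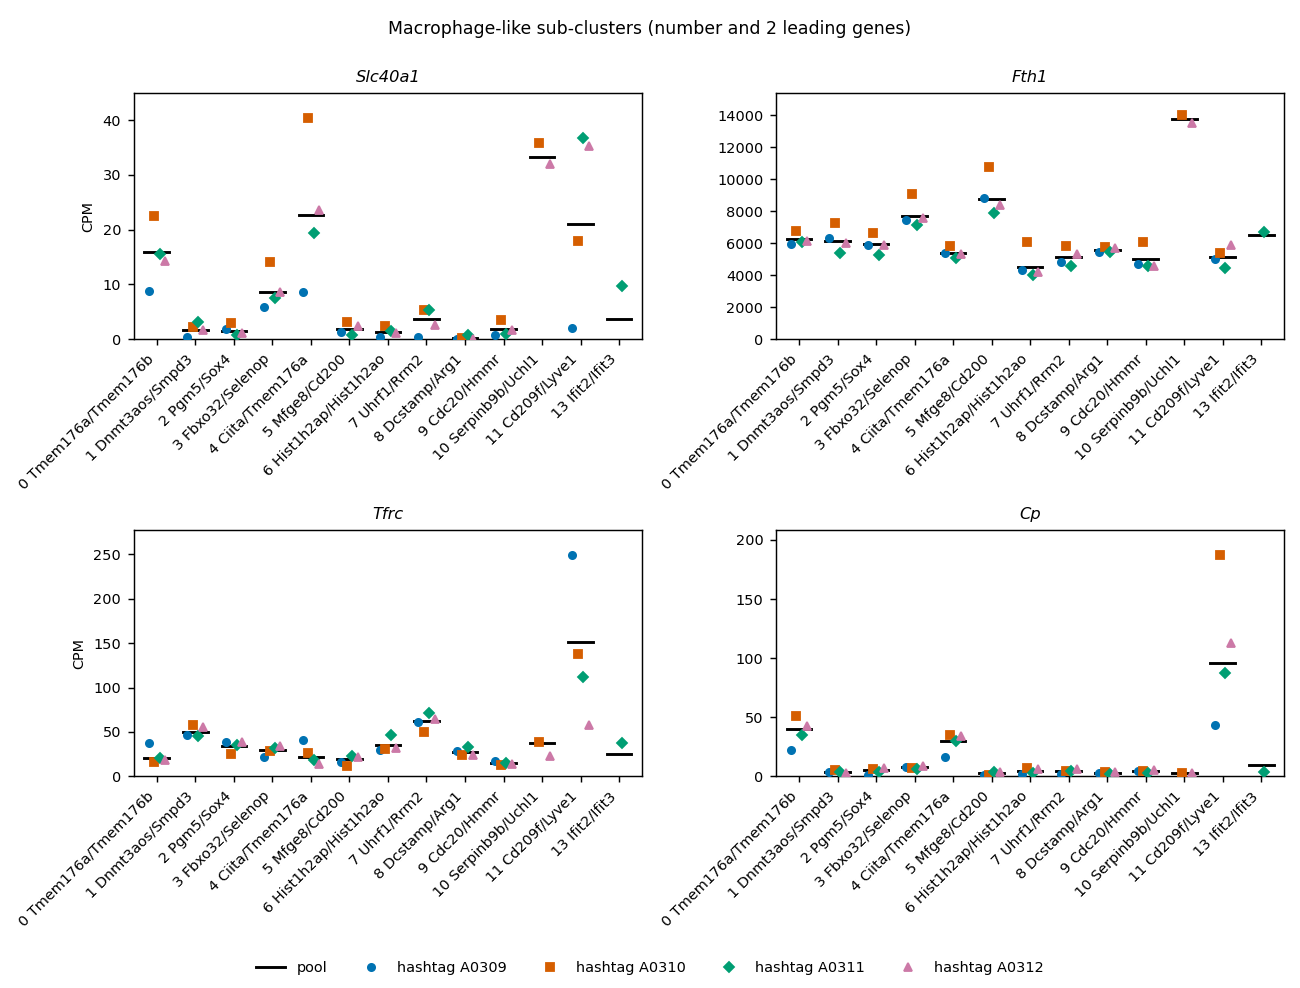
Slc40a1, Fth1, Tfrc and Cp in CPM over the 13 macrophage sub-clusters, each named by its number and leading genes, pool as a line and hashtags as points. Over the pool the Serpinb9b sub-cluster is highest for Fth1 and the resident-like sub-cluster (Cd209f, Lyve1) for Tfrc and Cp, while the lead of the Serpinb9b sub-cluster in Slc40a1 over sub-cluster 4, with 22.7 CPM, is lost without its top cell.

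Between the progenitor and preadipocyte states of fibroblasts, Slc40a1 was the single member called. The 928 Dpp4-progenitor-like cells, the reservoir from which preadipocytes are thought to arise, had 126, 133, 127 and 132 CPM of Cp in A0309 to A0312. The 672 preadipocyte-like cells had 295, 306.4, 229 and 345 CPM, well apart in every hashtag (log2 ratio of the progenitors over the preadipocytes −1.17), though hashtag A0311 gave −0.84 and the difference was not called. Cp was called lower without A0311 (−1.26), with tag-count multiplets left out (−1.58) and at Leiden resolutions 0.5 (−1.56) and 2 (−1.24). Slc40a1 was called lower, at 1.75 against 5.50 CPM (log2 ratio −1.24), where 5.22% of all genes were called, 2.8% higher and 2.43% lower. Its values were 0.502, 1.24, 2.09 and 3.37 CPM in Dpp4-progenitor-like cells, against 3.91, 3.51, 5.43 and 10.5 CPM in preadipocyte-like cells. The 2 groups did not overlap, but they rest on 64 and 165 counts, and the call was lost without hashtag A0312 (−1.22), with hashtags assigned by tag counts (−0.81) and with a pseudocount of 5 CPM (−0.64).

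The highest Cp levels were in fibroblasts of other states. The sub-cluster led by Agt and Cxcl14 (497 cells) had 662, 616, 511 and 585 CPM of Cp in A0309 to A0312 and 749 CPM of Trf over the pool. Inflammatory-like cells (460) had 500 CPM of Cp and 584 CPM of Trf. F3-positive-like cells (98) had 489 CPM of Cp, but only 139 CPM of Trf, so high Cp did not always go with high Trf. Dpp4-progenitor-like cells had 83.2 CPM and preadipocyte-like cells 121 CPM of Trf. A mixed sub-cluster of 17 cells led by the mesothelial genes Upk3b and Msln, kept out of the fibroblast-like class, had 790 CPM of Trf and no count of Cp.

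F3-positive-like cells had the most Fth1 of the fibroblasts, with 6088, 7079 and 7140 CPM in the 3 hashtags with 20 or more cells and thus within the range of macrophage-like cells. Inflammatory-like, Dpp4-progenitor-like and preadipocyte-like cells had 4208, 3876 and 2868 CPM. Slc11a1 was also above the other fibroblast states in F3-positive-like cells, at 51.1 CPM against 7.80 in Dpp4-progenitor-like and 12.7 CPM in preadipocyte-like cells. Macrophage markers summed to 2.23% of their macrophage level in F3-positive-like and to 1.02% in preadipocyte-like cells, and their part in this difference was not tested. Slc40a1 peaked elsewhere, in the sub-cluster led by Mlana and Mmp11 (263 cells), with 7.42, 13.9, 11.4 and 17.6 CPM in A0309 to A0312. This range overlapped that of MHC class II high-like macrophages.

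**Figure D5:**
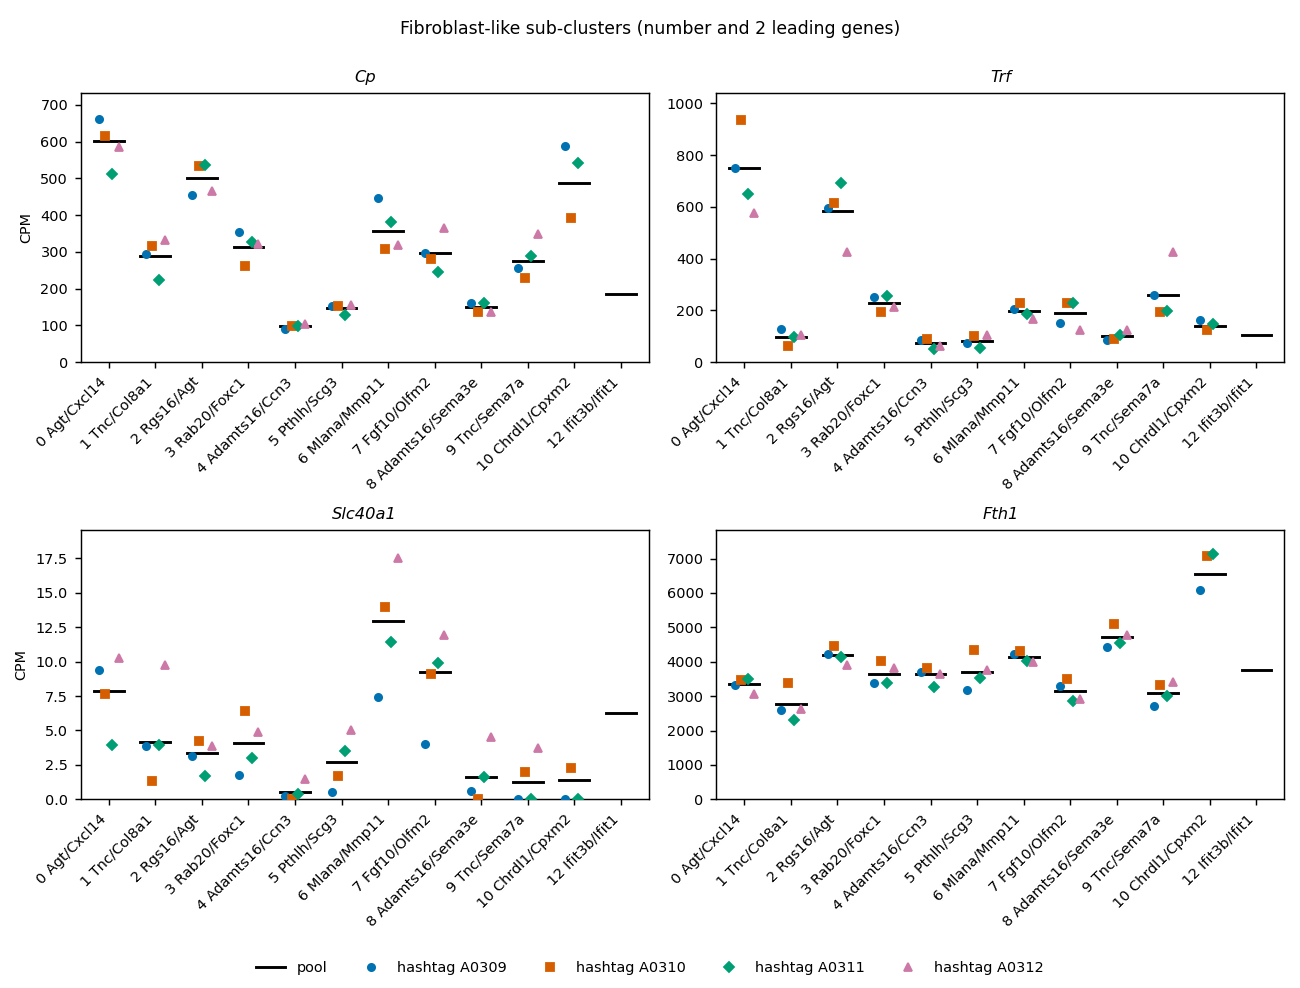
Cp, Trf, Slc40a1 and Fth1 in CPM over the fibroblast sub-clusters, each named by its number and leading genes, pool as a line and hashtags as points. Cp is lowest in the Dpp4-progenitor-like sub-clusters 4, 5 and 8, Trf is high in sub-clusters 0 and 2, Slc40a1 in sub-cluster 6 and Fth1 in sub-cluster 10.

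Endothelial-like cells were low in most of the set, and no endothelial state was named. The class does not hold the 480 cells of the mixed endothelial and mural clusters, so its levels describe only part of the cells with endothelial markers. In those mixed clusters 34.3% and 46.0% of cells were at 0 for Ftl1, against 65.9% of endothelial-like cells. Slc40a1 had no count in 4 of the 6 sub-clusters, with 263, 79, 77 and 26 cells. Trf ranged between 29.7 and 70.1 CPM and Ftl1 between 584 and 1358 CPM over the sub-clusters. In the sub-cluster with the lowest Ftl1, 82.9% of cells were at 0 for it. A cycling sub-cluster of 26 cells had 22.2 CPM of Tfrc and 38.5 CPM of Cp, against 4.78 and 7.12 CPM over all endothelial-like cells. Fibroblast markers summed to 1014 CPM there, against 179 CPM over all endothelial-like cells, and their part in the Cp value was not tested.

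The wider iron pathway, 50 other genes present of 51 listed, was called in both directions. In macrophage-like over fibroblast-like cells 7 were called higher and 11 lower of the 37 past the filter, with a median log2 ratio of −0.19 over the 50. That is 18.9% higher and 29.7% lower, beside 14.2% and 19.1% of all genes. Of the 13 genes of haem handling 10 passed the filter, and 6 were called higher and 2 lower. Blvra, which reduces biliverdin, had 182 against 23.0 CPM. Hmox1 had 236 against 57.0 CPM, its relative Hmox2 130 against 34.7 CPM and the haem exporter Flvcr1 35.8 against 9.03 CPM. Of the 12 genes of uptake and the endosome 7 passed the filter, and 5 were called lower and none higher: the ferrireductase Steap4 had 2.24 against 313.8 CPM in fibroblast-like cells. Both genes past the filter in the list of export and ferroxidase genes were lower as well. Heph, a ferroxidase like Cp, had 0.268 against 19.7 CPM. The other, the prion protein gene Prnp, had 57.5 against 417 CPM. Haptoglobin (Hp) had 1.28 against 47.7 CPM and Bmp6, the ligand that drives hepcidin in the liver, 0.362 against 26.0 CPM. The iron chaperone Pcbp2 was not called, at 355 against 304.04 CPM.

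Against endothelial-like cells, 8 of the 36 other iron genes past the filter were called higher in macrophage-like cells and 9 lower, or 22.2% and 25%, beside 9.92% and 19.6% of all genes. The receptor Lrp1 had 494 against 44.4 CPM and the ferrireductase Steap3 95.4 against 12.6 CPM, while Bmp6 had 0.362 against 78.4 CPM, Prnp 57.5 against 726 CPM and the haem and drug exporter Abcg2 17.4 against 170 CPM. Blvra and Blvrb, also called higher, had 182 against 40.3 CPM and 208 against 46.6 CPM. With the mixed sub-clusters kept, the calls of Steap3 (1.13), Blvra (1.07) and Blvrb (0.92) were lost. Fibroblast-like over endothelial-like cells gave 5 higher and 2 lower of 37, or 13.5% and 5.41%, near or below the 10.9% and 12.9% of all genes. Steap3 had 517 against 12.6 CPM, Steap4 313.8 against 9.39 CPM and Lrp1 1162 against 44.4 CPM, and Abcg2 was lower at 28.9 against 170 CPM.

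Within macrophages most of the calls of these genes were lost under some alternative. Shares called higher and lower of the genes past the filter follow, with those of all genes in brackets. For resident-like over other macrophage-like cells they were 6.06% and 0% (2.78% and 2.56%) of 33. For MHC class II high-like over other macrophage-like cells they were 12.5% and 3.125% (3.47% and 3.91%) of 32. For lipid-associated-like over resident-like cells they were 9.09% and 9.09% (3.21% and 5.59%) of 33. Resident-like cells were higher than other macrophage-like cells in Bmp2 (49.7 against 7.56 CPM) and in Slc25a37 (60.3 against 20.5 CPM), but at Leiden resolution 2 neither was called (log2 ratios of 1.45 in place of 2.57 and 0.52 in place of 1.51). MHC class II high-like cells were higher in Spic, a transcription factor of iron-recycling macrophages in the mouse spleen, with 12.8 against 2.12 CPM in other macrophage-like cells. Hfe, a partner of the transferrin receptor, had 149 against 50.2 CPM, Bmp2 22.2 against 5.32 CPM and the mitochondrial importer Slc25a37 40.4 against 17.2 CPM. Alas1, the entry enzyme of haem synthesis, was lower at 35.0 against 100.2 CPM. Of these 5 calls Hfe was the one kept under all 14 alternatives run, and at resolution 2 the log2 ratios were 1.44 for Spic, 1.35 for Bmp2, 0.77 for Slc25a37 and −1.12 for Alas1. Lipid-associated-like cells compared with resident-like cells were higher in Alas1 (164 against 38.6 CPM), in Slc48a1, which moves haem out of lysosomes (450 against 146 CPM), and in Flvcr1 (43.2 against 16.4 CPM). They were lower in Bmp2 (3.44 against 49.7 CPM), Slc25a37 (11.8 against 60.3 CPM) and Hfe (43.3 against 138 CPM). The calls of Alas1 and Bmp2 were kept under all 14 alternatives run, and the other 4 were lost at resolution 2, with log2 ratios of 0.86 for Slc48a1, 0.42 for Flvcr1, −1.062 for Slc25a37 and −0.63 for Hfe. Against all other macrophage-like cells none of the 50 was called in lipid-associated-like or in cycling cells, where 4.15% and 5.61% of all genes were. Dpp4-progenitor-like cells had 79.3 CPM of Bmp6 against 7.36 CPM in preadipocyte-like cells and 82.0 CPM of Steap4 against 350 CPM, and monocyte-like cells had 24.5 CPM of Hp against 1.28 CPM in macrophage-like cells.

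Patterns over the 36 clusters of 50 or more cells were compared by Pearson's r of log2(CPM + 1), as a description of points that share 1 library and its depth. Ftl1 was most like Ftl1-ps1 (r = 0.98), the copy that may share its reads, and the lysosomal protease gene Ctsb (0.98). Fth1 was most like Npc2 (0.89), a lysosomal cholesterol carrier. Slc11a1 was most like Cd300lb (0.97), Trf most like the lysosomal enzyme gene Hexa (0.90), Tfrc most like the leukocyte tetraspanin gene Cd37 (0.91) and Slc11a2 most like the proton channel gene Hvcn1 (0.78). Cp was most like Rcn3 (0.96), with Ggt5 next. Slc40a1 had the loosest neighbours, Itsn1 (0.66) and Igf1 (0.65). Among the 8 themselves Ftl1 and Slc11a1 (0.91), Fth1 and Ftl1 (0.85) and Ftl1 and Trf (0.84) ran together, and Cp and Slc11a1 ran opposite (−0.49).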

How the data were processed

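The authors deposited a table of counts, 30084 genes by 15741 cells, and 1 of hashtag tag counts. Both hold whole numbers. It is not stated whether they are reads or molecules. The submitters' processing notes name R 4.1.2 and R 3.6.3, Bowtie2 2.4.2, cutadapt 3.4 and the build GRCm38. In the deposited counts 65 genes detected in 100 or more cells have no value below 5, Ftl1 and the markers Dcn and Col3a1 among them, so low values were zeroed before deposit. Markers of states are also among them. They include H2-Aa, H2-Ab1, H2-Eb1 and Cd74 of the MHC class II high list, and Gpnmb, Lpl and Atp6v0d2 of the lipid-associated list. The effect of this zeroing on the naming of states was not tested.

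Cells kept the hashtag of the authors' cell names, per the file headers, and the 367 cells the authors named doublets were left out; no further doublet caller was run. Of 15374 hashtagged cells, 182 failed the limits of at least 200 genes and at most 25% mitochondrial counts. All 15192 used barcodes were in the hashtag table, and 0 were duplicated. Assignment from tag counts (at least 10 tags, 75% from a single hashtag) was kept as an alternative, since it would keep 94.1% of macrophage-like but 18.1% of fibroblast-like cells, whose median was 35 tags.

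Counts were scaled to 10000 per cell and clustered on 2000 variable genes without iron genes (30 principal components, 20 neighbours, Leiden resolution 1, seed 1), overall and within classes. A class or state needed 3 or more markers in 25% of cells with a log2 difference of at least 1. Resident and lipid-associated markers were counted as macrophage markers among leading genes, a choice made after the data were seen. Levels are summed counts of a group per 1000000 of its counts (CPM). Differences are log2 ratios of CPM + 1, called by the rule of size stated with the results. With 1 library there is no replicate and no p-value. Intervals are exact at 95% (Poisson, Clopper-Pearson) and cover counting error only. The rule of size was tested on simulated counts with known folds. These had counting error only and no spread between hashtags, so the test does not cover such spread. Python 3.11.15, NumPy 2.4.6, SciPy 1.17.1, pandas 2.3.3, scikit-learn 1.9.0, leidenalg 0.10.2, igraph 0.11.9 and matplotlib 3.10.9 were used.

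The members, gene lists and tests were chosen with earlier results of these data known. All 8 members were compared in every comparison, but the text does not print each value. From the other iron genes, the called genes with the largest ratios were picked, up to 4 in each direction, and the text names only some of these. The uncalled gene of highest CPM is named where it adds a value. The 3 genes most alike were computed for each member and the leading ones named. The genes named for single sub-clusters, Hmox1 included, were chosen after their values were seen. Hjv and 8 marker genes were not analysed here.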

Additional observations from a re-analysis of the deposited data

How the results depend on the processing

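The 80 ratios of the 8 genes in 10 comparisons kept sign and call in 73 to 80 cases under each alternative run on all of them. Signs turned with the mixed sub-clusters kept: Ftl1 and Trf of fibroblast-like over endothelial-like cells gave −0.66 and −0.0018, against 1.23 and 2.64. Counts of the 8 genes called that moved by more than 1.5 times follow, each against its count in the report. With mixed sub-clusters kept, 3 were called for macrophage-like over endothelial-like cells (6) and 2 for fibroblast-like over endothelial-like cells (4). With hashtags from tag counts, 1 was called for lipid-associated-like over resident-like cells (2), 1 for MHC class II high-like over other macrophage-like cells (3), 1 for monocyte-like over macrophage-like cells (0) and 0 for the Dpp4-progenitor-like cells against preadipocyte-like cells (1). With tag-count multiplets left out, the counts were 1 for MHC class II high-like, 0 for cycling (1), 1 for monocyte-like and 2 for Dpp4-progenitor-like cells. Leiden resolution 0.5 gave 4 for lipid-associated-like over resident-like, 2 for resident-like over other (1), 1 for monocyte-like and 3 for Dpp4-progenitor-like cells. Resolution 2 gave 2 for resident-like, 0 for lipid-associated-like over other (1), 2 for cycling, 2 for monocyte-like and 2 for Dpp4-progenitor-like cells. A mean over cells gave 2 for cycling and 1 for monocyte-like cells. A pseudocount of 5 CPM gave 0 for lipid-associated-like over other, 0 for cycling and 0 for Dpp4-progenitor-like cells. Leaving out each hashtag in turn gave 0 to 2 for monocyte-like, 1 to 2 for cycling, 0 to 2 for Dpp4-progenitor-like and 1 to 2 for resident-like cells. Chosen after the data were seen, leaving out cells with any fibroblast-marker count gave 0 for lipid-associated-like over other and 2 for cycling cells, and leaving out the Serpinb9b sub-cluster, which has Gclm among its leading genes, gave 2 for lipid-associated-like over other cells. Leaving out cells with a fibroblast-marker count left under 20 resident-like cells in each hashtag, so the comparisons with that state could not be called. Of the 40 calls of other iron genes picked by the naming rule, 25 were kept under every alternative run. No count of members moved by more than 1.5 times with median-of-ratios scaling, with mitochondrial genes left out of the total or with the rows of ferritin copies added. Smaller moves were these. MHC class II high-like cells had 2 (3) at both other resolutions, with median-of-ratios scaling, as a mean over cells and without cells holding a fibroblast-marker count. Macrophage-like over fibroblast-like cells had 4 (5) with hashtags from tag counts. Macrophage-like over endothelial-like cells had 7 (6) as a mean over cells, and 5 with a pseudocount of 5 CPM or without A0310. The cause of these changes was not tested.

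No paired analysis was possible because the results come from no test: cells of both groups were compared within each hashtag, but only for the rule of size. Depth limits Slc40a1, which had 9 counts in endothelial-like cells.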
